A study of Sus scrofa with 9 samples.

Results

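Antigen presentation on major histocompatibility complex (MHC) class I was followed through 10 pig genes, taken by symbol from a table of read counts for 27339 genes. They were the regulators NLRC5 and CIITA, the immunoproteasome subunit genes PSMB8, PSMB9 and PSMB10, the transporter genes TAP1 and TAP2, the loading factor gene TAPBP, the trimming enzyme gene ERAP1 and the class I light chain gene B2M. All 10 were present in the table, and all 10 were among the 15956 genes with enough counts to be tested.

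Most nucleated cells display short peptides of their own proteins on class I molecules, where cytotoxic T cells can inspect them. The proteasome cuts the proteins, the TAP1-TAP2 transporter carries the peptides into the endoplasmic reticulum, tapasin (the product of TAPBP) holds the empty class I molecule at the transporter, ERAP1 trims peptides to length, and beta-2-microglobulin (the product of B2M) completes the molecule. Interferon-gamma is known to raise this set of genes, partly through the transcription factor IRF1 and through NLRC5, a coactivator that acts on class I genes, B2M, TAP1 and PSMB9 in human and mouse cells. CIITA is the related coactivator of class II genes, which serve professional antigen presenting cells.

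The RNA came from primary Göttingen pig myoblasts, the muscle precursor cells, at passages 7 to 9. Of the 9 libraries, 3 came from cells with an inducible transgene, switched on by doxycycline, for human DUX4, a double homeobox factor of the early embryo whose misexpression in muscle underlies facioscapulohumeral dystrophy. In 3 others the inducible transgene was pig DUXC, a double homeobox factor of the pig, and in the last 3 it was GFP, the control. Expression of the introduced genes was not analysed here. All cells, controls included, received 1 µg/mL doxycycline for 16 h before harvest. Whether replicate libraries stem from independent cultures or animals is not stated, so the p-values given here measure library-to-library spread, which may be only technical.

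Total counts ranged from 36580573 to 44420895 per library. Levels are normalised read counts (CPM, a gene's reads scaled to a common library size that is adjusted for composition). They are not divided by transcript length, so levels were compared between groups for each gene and not between genes. All 9 listed myoblast markers had counts in the GFP libraries, with a summed level of 91.5 to 101 CPM. Most of it came from the adhesion gene NCAM1, at 86.4 ± 4.25 CPM (SD, n = 3). The muscle filament gene DES stood at 7.15 ± 0.326 CPM, and PAX3, MYF5 and PAX7 were low, at 1.07, 0.705 and 0.402 CPM. In the group as a whole CDH15 had 21 reads and MYMK 3, and the myogenic factor genes MYOD1 and MYOG had 1 and 6. The collagen gene COL1A2, a fibroblast marker, stood at 19248 ± 554 CPM. These are bulk RNA values, in which fewer cells expressing a gene and less RNA per cell cannot be told apart, and they measure RNA, not protein.

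NLRC5 was the member that moved most. It lies on chromosome 6 (18933179 to 19036288, Sscrofa11.1, as are all positions) and was scarce in control cells, with 0.367, 0.719 and 0.411 CPM in the 3 GFP libraries. With DUX4 it stood at 0.246, 0.459 and 0.487 CPM, and with DUXC at 4.18, 5.73 and 5.33 CPM. Every DUXC library lay above every library of the other groups, and the DUX4 and GFP libraries overlapped. The mean with DUXC was 10.2 times that with GFP, a log2 fold change of 3.35 (SE 0.194), with an adjusted p of 3.56e-20 in edgeR's two-sided quasi-likelihood test. Every adjusted p below comes from that test, with Benjamini-Hochberg adjustment over all tested genes. At least 2-fold rises that passed this test were found in 21.3% of all tested genes with DUXC, and NLRC5 was the one member among them. DUX4 gave a log2 difference of -0.32 (SE 0.322) that did not pass (adjusted p = 0.392), and its sign turned to 0.03 without GFP replicate 2. Between the transgenes the log2 difference of DUX4 from DUXC was -3.67 (adjusted p = 4.46e-21).

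CIITA (chromosome 3, 32171706 to 32230775) was close to the limit of detection in all 9 libraries, with 10, 15 and 11 counts with GFP, 7, 4 and 10 with DUX4 and 18, 19 and 15 with DUXC. The GFP libraries overlapped both other groups, and the DUXC libraries lay above the DUX4 libraries. Neither transgene passed against GFP, with log2 differences of -0.82 for DUX4 (SE 0.432, adjusted p = 0.0941, and 0.0414 without DUX4 replicate 3) and 0.53 for DUXC (SE 0.356, adjusted p = 0.167). The difference of DUX4 from DUXC passed, at log2 -1.34 (adjusted p = 0.00214). The span of CIITA overlaps that of DEXI, which stood at 5.24 ± 0.503 CPM in GFP libraries, 3.34 ± 0.1604 with DUX4 and 3.41 ± 0.187 with DUXC, and the sources used here do not say whether reads were counted by strand.

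**Figure D1:**
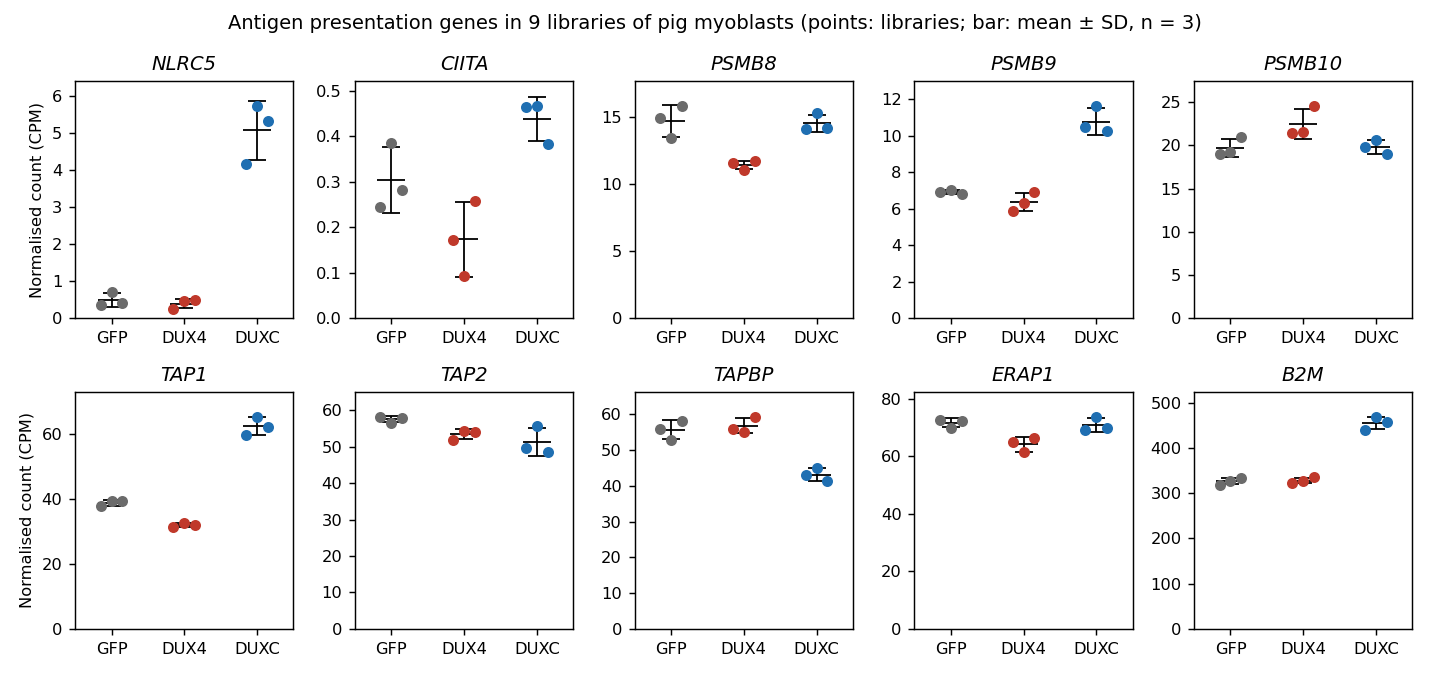
Normalised read counts (CPM, linear axes from 0) of the 10 genes in each library of the GFP, DUX4 and DUXC groups; points are libraries and bars the mean ± SD of n = 3. NLRC5, PSMB9, TAP1 and B2M sit higher in all 3 DUXC libraries than in the other 6, and TAPBP sits lower in them.

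NLRC5 and CIITA act through factors bound to MHC promoters, and these were followed as a list of 12, all tested. With DUXC 8 rose and 2 fell (median log2 0.26 against -0.03 over all tested genes), and with DUX4 6 rose and 3 fell (median 0.10 against 0.00). Beside these and all later list counts, 40.2% of all tested genes rose and 42.3% fell with DUXC, and 32.9% rose and 31.9% fell with DUX4. NFYA, a subunit of the trimeric factor that binds the Y box, went from 31.5 ± 1.81 CPM with GFP to 50.7 ± 2.34 with DUX4 and 135 ± 3.29 with DUXC. RFXAP, part of the RFX complex on the X box, went from 7.805 ± 0.4104 to 10.2 ± 0.326 and 19.9 ± 0.819 CPM, while its partner RFXANK was at 20.3 ± 0.307, 22.2 ± 0.604 and 21.6 ± 1.28 CPM. The cAMP response factor gene CREB1 rose with DUXC (log2 1.82) and did not pass with DUX4 (log2 -0.03). The polycomb methyltransferase gene EZH2, which can repress MHC genes in human cells, rose with both (log2 2.02 with DUX4 and 2.87 with DUXC), and the acetyltransferase gene KAT2B fell with both (log2 -1.59 and -0.77).

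The immunoproteasome forms when PSMB8, PSMB9 and PSMB10 take the places of the catalytic subunits PSMB5, PSMB6 and PSMB7, which changes the peptides that are cut. Against GFP, PSMB9 passed with DUXC, and PSMB8 and PSMB10 passed with DUX4 in opposite directions. PSMB9 (chromosome 7, 25072133 to 25077508) had 6.9004, 7.01 and 6.83 CPM in GFP libraries, 5.901, 6.31 and 6.896 with DUX4 and 10.5, 11.6 and 10.3 with DUXC. All DUXC libraries lay above all others, and the rise was 1.56-fold (log2 0.64, SE 0.0807, adjusted p = 7.60e-10). With DUX4 the log2 difference was -0.12 and did not pass (SE 0.08702, adjusted p = 0.2302).

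PSMB8 (chromosome 7, 25058456 to 25061666) had 14.9, 13.4 and 15.8 CPM in GFP libraries, 11.53, 11.08 and 11.69 with DUX4 and 14.1, 15.3 and 14.1 with DUXC. Here it was DUX4 that stood apart, below all other libraries, with a fall of 0.36 on the log2 scale (SE 0.0678, adjusted p = 7.51e-06). DUXC and GFP libraries overlapped (log2 -0.02, adjusted p = 0.814), and the sign of that difference turned under other scalings. PSMB10 (chromosome 6, 28544910 to 28547609) had 19.01, 19.3 and 20.9 CPM in GFP libraries, 21.4, 21.5 and 24.5 with DUX4 and 19.8, 20.7 and 19.01 with DUXC. It rose with DUX4 (log2 0.19, SE 0.0578, adjusted p = 0.00431), a call that was lost without DUX4 replicate 3 (log2 0.12, adjusted p = 0.0769). With DUXC the log2 difference was 0.01 (adjusted p = 0.901, and log2 0.13 with adjusted p = 0.0337 when libraries were scaled by total count alone).

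The constitutive counterparts moved with DUXC too, all 3 of them downward. PSMB5 fell from 104 to 109 CPM in the GFP libraries to 76.1 to 78.5 CPM in the DUXC libraries (log2 -0.47, adjusted p = 2.14e-17). PSMB6 (log2 -0.24) and PSMB7 (log2 -0.37) also fell. With DUX4, PSMB5 and PSMB6 rose (log2 0.15 and 0.19) and PSMB7 did not pass (log2 0.05, adjusted p = 0.155).

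Within a library the ratio of an inducible subunit to its counterpart does not depend on how libraries are scaled. PSMB9 made up 6.32, 6.04 and 5.99% of the reads of PSMB9 and PSMB6 together in the GFP libraries, 4.85, 4.89 and 5.24% with DUX4 and 10.4, 11.4 and 10.3% with DUXC. The 3 groups did not overlap: the log2 ratio was 0.88 higher with DUXC than with GFP and 0.31 lower with DUX4. PSMB8 against PSMB5 had the same order, with 12.3, 11.4 and 12.6% with GFP, 9.04, 8.57 and 8.86% with DUX4 and 15.6, 16.3 and 15.7% with DUXC. The log2 ratio was 0.45 higher with DUXC than with GFP, where PSMB5 fell and PSMB8 did not pass, and lower with DUX4 (difference -0.51), where PSMB8 fell and PSMB5 rose. For PSMB10 against PSMB7 the log2 ratio was -2.64 ± 0.0644 with GFP, -2.51 ± 0.1097 with DUX4 and -2.27 ± 0.0318 with DUXC (SD, n = 3), and the DUX4 and GFP libraries overlapped. In an exact two-sided permutation test of 3 libraries against 3 the smallest possible p is 0.1. That value was reached in 8 of the 9 ratio comparisons (0.1125 adjusted over the 9), and PSMB10 against PSMB7 with DUX4 gave 0.2, so none could pass 0.05.

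**Figure D2:**
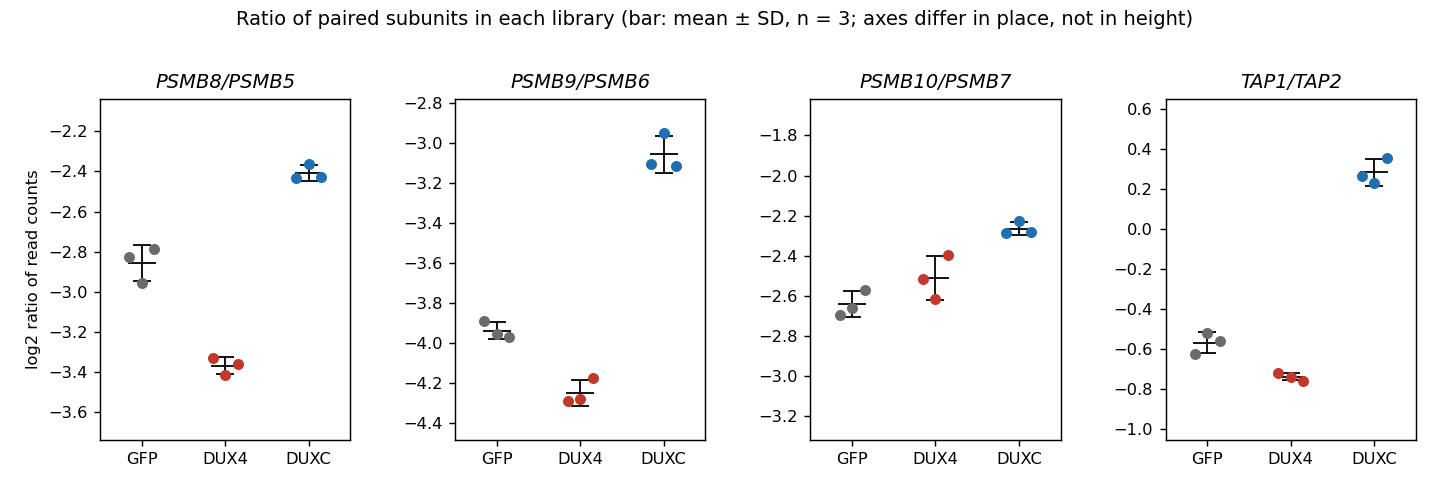
Log2 ratio of the read counts of each inducible proteasome subunit to its constitutive counterpart, and of TAP1 to TAP2, in each library; bars are the mean ± SD of n = 3, and the 4 axes span the same height. The DUXC libraries hold the highest ratios in every panel, and the DUX4 libraries hold the lowest for PSMB8/PSMB5, PSMB9/PSMB6 and TAP1/TAP2.

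The interferon-inducible proteasome activator PA28 is built from PSME1 and PSME2, and these moved apart. PSME2 rose with DUXC, from 48.1 ± 0.991 to 68.1 ± 1.38 CPM (log2 0.50, adjusted p = 6.49e-17), and rose with DUX4 too (log2 0.13), with a log2 difference of DUX4 from DUXC of -0.37 (adjusted p = 8.56e-13). PSME1 fell with both, by 0.38 on the log2 scale with DUX4 and by 0.15 with DUXC. The other activator genes went in opposite directions with DUXC, PSME4 upward (log2 0.73) and the nuclear activator PSME3 downward (log2 -0.30). Of 16 other genes of the 20S core and its assembly, 6 rose and 8 fell with DUXC (median log2 -0.13) and 9 rose and 1 fell with DUX4 (median 0.10). The alpha subunit gene PSMA3 rose with DUXC (log2 1.02) while PSMB3 fell (log2 -0.58), so genes for subunits of one particle did not move together.

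TAP1 and TAP2 encode the subunits of the peptide transporter, and with DUXC they parted. TAP1 (chromosome 7, 25062772 to 25071989) had 37.7, 39.5 and 39.3 CPM in GFP libraries, 31.4, 32.5 and 32.02 with DUX4 and 59.7, 65.2 and 62.1 with DUXC. The 3 groups did not overlap. TAP1 rose 1.61-fold with DUXC (log2 0.68, SE 0.0412, adjusted p = 2.48e-20) and fell with DUX4 (log2 -0.28, SE 0.0437, adjusted p = 2.69e-07). TAP2 (chromosome 7, 25045085 to 25056915) had 58.1, 56.6 and 57.8 CPM in GFP libraries, 51.8, 54.2 and 54.1 with DUX4 and 49.7, 55.7 and 48.6 with DUXC. It was lower with both transgenes by small amounts, log2 -0.11 with DUX4 (adjusted p = 0.0199) and -0.16 with DUXC (adjusted p = 4.34e-04), and both calls depended on the scaling: with library totals alone they were -0.08 (adjusted p = 0.06685) and -0.04 (adjusted p = 0.396). The DUX4 call was also lost without DUX4 replicate 1 (adjusted p = 0.0771) and without GFP replicate 1 (adjusted p = 0.06795). TAP1 made up 39.4, 41.1 and 40.5% of the reads of both genes with GFP, 37.8, 37.5 and 37.2% with DUX4 and 54.5, 53.9 and 56.1% with DUXC, a ratio that was looked at after the values were seen and is given without a test.

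TAPBP (chromosome 7, 29663491 to 29673453) encodes tapasin, which bridges class I molecules to the transporter. It had 55.99, 52.9 and 58.04 CPM in GFP libraries, 55.96, 55.1 and 59.2 with DUX4 and 43.1, 45.02 and 41.3 with DUXC. The DUXC libraries lay below all others, a fall of 0.37 on the log2 scale (SE 0.04196, adjusted p = 6.02e-11), and DUX4 did not pass (log2 0.03, adjusted p = 0.567). TAPBP overlaps ZBTB22, which stood at 12.1 ± 0.329 CPM with GFP and 8.35 ± 0.485 with DUXC (log2 -0.53), and its part in the TAPBP count was not tested.

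Other proteins of peptide loading and trimming were followed as a list of 16, all tested. With DUXC 12 fell and 2 rose (median log2 -0.43), where 42.3% of all tested genes fell and 40.2% rose (median -0.03). With DUX4 10 rose and 3 fell (median 0.12), where 32.9% rose and 31.9% fell (median 0.00). The lectin chaperone calreticulin and the disulfide isomerase ERp57 work with tapasin in the loading complex. Their genes went from 861 ± 18.3 CPM with GFP to 1102 ± 7.42 with DUX4 and 472 ± 1.61 with DUXC for CALR, and from 851 ± 6.37 to 996 ± 10.5 and 448 ± 5.43 for PDIA3. NPEPPS, a cytosolic aminopeptidase, fell by 1.01 on the log2 scale with DUXC and did not pass with DUX4 (log2 0.03). HSPA5, the main chaperone of the endoplasmic reticulum, rose with both (log2 0.81 and 0.30). The second gene that rose with DUXC was that of the peptidase TPP2 (log2 0.86).

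ERAP1 (chromosome 2, 103378428 to 103415066) had 72.7, 69.9 and 72.4 CPM in GFP libraries, 65.2, 61.3 and 66.2 with DUX4 and 69.1, 73.6 and 70.02 with DUXC. DUX4 libraries lay below all others, a fall of 0.16 on the log2 scale (SE 0.0371, adjusted p = 2.14e-04), and DUXC did not pass (log2 -0.01, adjusted p = 0.716, and log2 0.11 with adjusted p = 0.00590 with library totals alone). Its span overlaps the much more abundant CAST, which went from 506 ± 4.95 CPM with GFP to 415 ± 4.11 with DUX4 and 316 ± 7.17 with DUXC. The related trimming enzyme gene ERAP2 did not pass with either, with log2 differences of 0.07 and -0.03.

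B2M had 319, 327 and 333 CPM in GFP libraries, 322, 326 and 335 with DUX4 and 441, 468 and 457 with DUXC. All DUXC libraries lay above the other 6, and the rise was 1.395-fold (log2 0.48, SE 0.0302, adjusted p = 1.37e-19). DUX4 and GFP libraries overlapped, with a log2 difference of 0.01 (SE 0.0303, adjusted p = 0.874). RefSeq places 2 entries with this symbol on chromosome 1, at 126837721 to 126844043 and at 126865767 to 126878501, so the B2M count may hold reads of either or both.

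**Figure D3:**
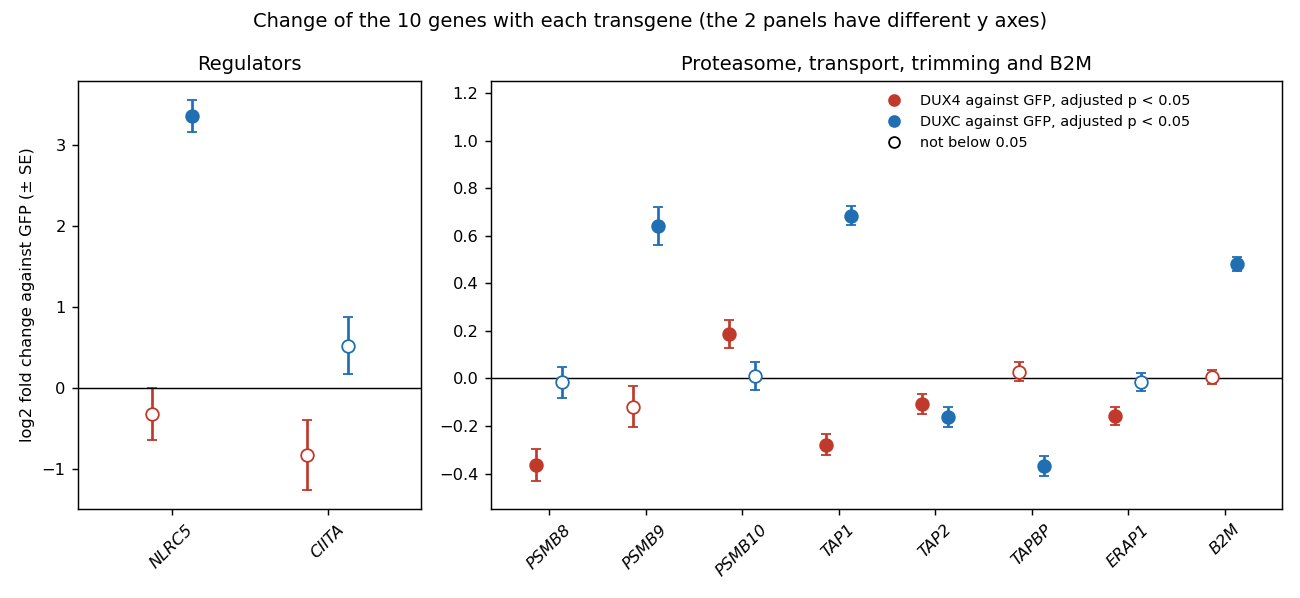
Log2 fold change against GFP (± SE, n = 3 libraries a group) of the 10 genes with DUX4 and with DUXC; filled points passed at adjusted p below 0.05, and the 2 panels have different vertical axes. The rises of NLRC5 (3.35), TAP1 (0.68), PSMB9 (0.64) and B2M (0.48) with DUXC have no called counterpart of the same sign with DUX4.

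The class I heavy chains that pair with B2M showed no common direction. Of 10 listed heavy chain and related genes in the table, 4 rose and 4 fell with DUXC (median log2 -0.08), and 5 rose and 3 fell with DUX4 (median 0.15), medians that CD1D at its bound below leaves as they are. Both counts of rises include CD1D, which reached the filter's level only in the DUXC libraries. Its rise with DUX4 rests on 0, 3 and 2 counts, and those libraries overlapped GFP. The classical gene SLA-1 was at 53.3 ± 2.04 CPM in GFP libraries, 48.9 ± 2.09 with DUX4 and 49.9 ± 2.004 with DUXC, and SLA-2 at 100.5 ± 2.51, 93.3 ± 4.97 and 109 ± 2.96. The nonclassical SLA-6 rose with DUXC from 55.9, 57.6 and 62.1 CPM to 111, 118 and 109.6 CPM (log2 0.95, adjusted p = 3.97e-27), while SLA-7 fell (log2 -0.36). FCGRT, the heavy chain of the neonatal Fc receptor that also pairs with B2M, fell with DUXC (log2 -0.71) and rose with DUX4 (log2 0.17). CD1D had no count with GFP, 5 with DUX4 and 43 with DUXC, at least 14.3-fold higher with DUXC against a floor of 3 counts over the group. Class I genes are near-identical copies and SLA-1, SLA-2, SLA-3 and SLA-5 overlap other genes, so reads may be split between them, and their values are uncertain.

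Of the members, 4 lie side by side in the class II region of the MHC, in the order TAP2, PSMB8, TAP1 and PSMB9, with no other annotated gene between them. The gaps are 1540, 1105 and 143 bases. The 2 genes separated by 143 bases, TAP1 and PSMB9, had log2 fold changes with DUXC of 0.68 and 0.64, while PSMB8 and TAP2, on the far side of TAP1, had -0.02 and -0.16. PSMB8 did not pass (adjusted p = 0.814), and with library totals alone its sign turned (log2 0.11). The TAP2 call was lost with that scaling (log2 -0.04, adjusted p = 0.396). Beyond TAP2 lies SLA-DOB, a class II gene that went from 0.388 ± 0.178 CPM with GFP to 3.01 ± 0.193 with DUXC (log2 2.95, adjusted p = 5.75e-17). Beyond PSMB9 lies the long noncoding RNA gene LOC110261500, at 1.75 ± 0.0912 CPM in GFP libraries, 0.202 ± 0.0288 with DUX4 and 3.07 ± 0.271 with DUXC, followed by the bromodomain gene BRD2 with log2 0.12 and 0.27. Changes in this stretch thus differed in size between neighbours.

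Over the 10 members, 5 passed with DUX4 against GFP, 1 higher and 4 lower, where 64.8% of all tested genes passed (32.9% higher and 31.9% lower). With DUXC against GFP 6 passed, 4 higher and 2 lower, where 82.5% of tested genes passed (40.2% higher and 42.3% lower). These shares lie below the background, so the number of calls is no result about the members. The libraries did not overlap for 5 members with DUX4, against 67.0% of tested genes, and for 6 with DUXC, against 83.5%. The median log2 fold change over the members was -0.14 with DUX4 and 0.24 with DUXC, against 0.00 and -0.03 over all tested genes. The comparisons share the GFP libraries, so the members' values in them are not independent.

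Set directly against each other, the transgenes differed in 9 of 10 members, 2 higher and 7 lower with DUX4, where 82.4% of tested genes differed (40.8% higher and 41.6% lower). The libraries did not overlap for the same number, 9, against 83.0% of tested genes, and none of the members was at least 2-fold higher with DUX4, against 9.83%. NLRC5 (log2 -3.67) and CIITA (log2 -1.34) were at least 2-fold lower, and the share of all tested genes that far down was not counted. Regardless of sign, their differences were at least as large as those of 95% and 78.1% of tested genes. TAP2 was the member that did not pass (log2 0.05, SE 0.0416, adjusted p = 0.223), and it passed without DUXC replicate 2 (log2 0.12, adjusted p = 0.0142). TAP1 was lower with DUX4 than with DUXC by 0.96 on the log2 scale (difference -0.96, adjusted p = 6.74e-26), PSMB9 by a difference of -0.76, B2M by -0.47, PSMB8 by -0.35 and ERAP1 by -0.14. TAPBP was higher (log2 0.39), as was PSMB10 (log2 0.18), the latter not passing without DUX4 replicate 3 (adjusted p = 0.0609) or with library totals alone (log2 0.08, adjusted p = 0.205). In the order of levels, GFP and DUX4 were neighbours that the test did not separate for NLRC5, PSMB9, B2M and TAPBP, and GFP and DUXC for PSMB8, PSMB10 and ERAP1. In the DUXC group, replicate 2 was the highest library for all 10 members, and the rises of NLRC5, TAP1, PSMB9 and B2M passed without it.

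Class II presentation is the business of professional antigen presenting cells, and several of its chain genes were scarce here. Of 14 listed genes in the table, 10 were tested, of which 4 rose and 6 fell with DUXC and 2 rose and 3 fell with DUX4. SLA-DRA had 0 counts with GFP, 1 with DUX4 and 30 with DUXC, SLA-DMA 0, 0 and 6, and SLA-DOA none at all, and all 3 stood below the filter for testing. The invariant chain gene CD74 had 0.294, 0.205 and 0.128 CPM with GFP and 0.568, 0.759 and 0.612 CPM with DUXC (log2 1.61, adjusted p = 4.83e-05). SLA-DRB1 went the other way, rising with DUX4 to 10.7, 12.02 and 11.6 CPM from 2.59, 1.69 and 2.44 with GFP (log2 2.35, adjusted p = 8.44e-24) and falling with DUXC to 0.645, 0.955 and 0.892 CPM (log2 -1.43). It belongs to a family of similar genes, and its alpha chain partner SLA-DRA had 1 count with DUX4. Among the proteases, cathepsin L (CTSL) fell with DUX4 (log2 -1.33) and rose with DUXC (log2 1.08), and cathepsin B (CTSB) and legumain (LGMN) fell with DUXC (log2 -0.57 and -0.85).

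The signals that normally switch these genes on were measured as well. Of 22 tested genes of interferon signalling, 16 rose and 4 fell with DUXC (median log2 0.37), where 40.2% of all tested genes rose and 42.3% fell. With DUX4 8 rose and 7 fell (median -0.04), a number of calls near the background of 64.8%. IRF1, which binds the shared region of TAP1 and PSMB9 and the NLRC5 promoter in human cells, had 27.4, 26.1 and 28.3 CPM in GFP libraries, 32.3, 35.6 and 34.3 with DUX4 and 93.9, 118.9 and 104.8 with DUXC. It rose with DUXC (log2 1.96, adjusted p = 1.38e-07) and with DUX4 (log2 0.32, adjusted p = 0.0225), and DUX4 differed from DUXC by log2 -1.63 (adjusted p = 3.92e-07). IFNG itself had 3 counts over the GFP libraries, 3 over the DUX4 libraries and 81 over the DUXC libraries, a ratio of DUXC to GFP of 27.0 (95% counting interval 8.91 to 134, which covers counting error only). IFNG reached the filter's level only in the DUXC libraries, so its place among the 22 tested genes and the 16 rises rests on that group. IRF8, counted as a rise with both transgenes, reached that level only in DUX4 and DUXC libraries. IFNB1 had no count with GFP or DUX4 and 14, 1 and 8 counts in the DUXC libraries. The receptor gene IFNAR2 and the kinase gene JAK2 rose with DUXC (log2 1.37 and 1.03), as did the inhibitor PIAS1 (log2 1.20), and JAK1 fell with both (log2 -0.61 with DUX4 and -0.42 with DUXC).

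NF-kB is the other activator of class I genes, and of 8 listed genes 6 rose and 2 fell with DUXC (median log2 1.35), while 6 rose and none fell with DUX4 (median 0.57), where RELA rose with DUX4 (log2 0.11) and fell with DUXC (log2 -0.53). REL went from 11.3 ± 0.167 CPM with GFP to 29.2 ± 1.81 with DUX4 and 97.2 ± 3.04 with DUXC, and the feedback inhibitor NFKBIA from 22.4 ± 0.408 to 36.3 ± 1.03 and 157 ± 10.3. TNF, a cytokine that activates NF-kB, had 2 counts over the GFP libraries, 7 over the DUX4 libraries and 1350 over the DUXC libraries, a ratio of DUXC to GFP of 675 (186 to 5577). TNF reached the filter's level only in the DUXC libraries. Its place among the tested genes, the rises with DUXC and both medians thus rests on that group. The part of IRF1, interferon or NF-kB in the changes of the 10 members was not tested.

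**Figure D4:**
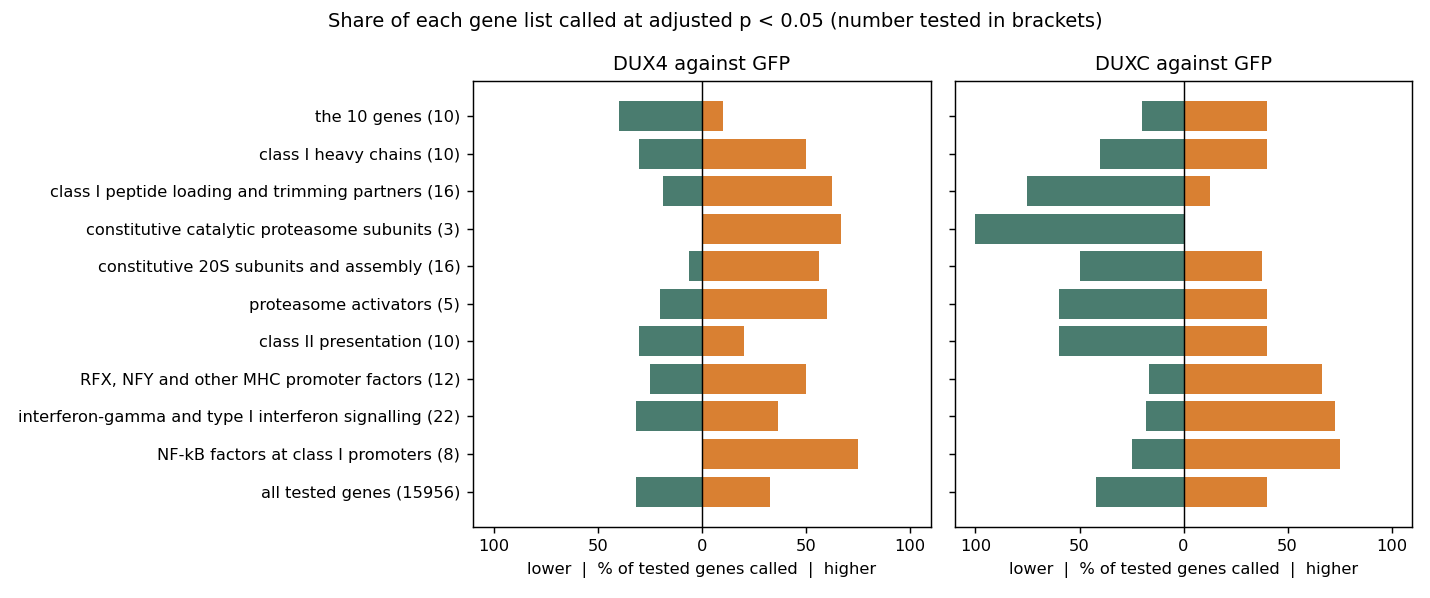
Share of the tested genes of each list (number in brackets) called higher (orange, to the right) or lower (green, to the left) at adjusted p below 0.05 with DUX4 and with DUXC against GFP, with all 15956 tested genes in the last row. Loading and trimming partners are mostly lower with DUXC (12 of 16) and mostly higher with DUX4 (10 of 16). CD1D, IFNG and TNF, counted among the rises with DUXC, reached the filter's level only in the DUXC libraries.

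Immune cells would carry these genes at high levels, and their markers were followed beside them. Of 19 markers of professional antigen presenting and other immune cells, 13 had counts with GFP, 17 with DUX4 and 19 with DUXC. Their summed level was 197 to 199.7 CPM in the GFP libraries, 245 to 255 with DUX4 and 161 to 165 with DUXC, most of it CD86 in every group except DUXC. Of the 10 markers tested, 5 rose and 3 fell with DUXC, and 5 rose and 2 fell with DUX4. CD80 and CD79A, among the rises with DUXC, reached the filter's level only in the DUXC libraries, so they were tested only through that group. The monocyte gene CD14 went from 6.48 ± 0.567 CPM with GFP to 15.03 ± 0.858 with DUXC (log2 1.22), and the macrophage gene CD68 rose with DUXC too (log2 1.23). The myeloid genes ITGAM and CSF1R, at 6.36 ± 0.477 and 2.67 ± 0.487 CPM with GFP, fell with DUXC (log2 -1.08 and -2.74). The pan-leukocyte gene PTPRC, MS4A1, CD3E, CD8A, CD163 and FLT3 had no count with GFP. PTPRC had none with DUX4 and 9, 4 and 3 counts in the DUXC libraries.

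Markers of other cell types also moved with the groups. The summed level of 7 endothelial markers was 17.3 to 17.9 CPM in the GFP libraries, 12.6 to 13.5 with DUX4 and 33.5 to 36.2 with DUXC, where PECAM1 (log2 2.00) and TEK (log2 4.28) rose and EMCN fell (log2 -0.89). Of 4 endothelial markers tested, 3 rose and 1 fell with DUXC. With DUX4 2 rose and 1 fell, the fall being that of EMCN (log2 -2.10). TEK reached the filter's level only in the DUXC libraries, and KDR, a rise with both transgenes, only in DUX4 and DUXC libraries. These rises thus concern genes tested only through the groups where they were high. CDH5, a defining endothelial gene, had no count with GFP, 2 with DUX4 and 11 with DUXC, and stood below the filter for testing. The sum of 8 fibroblast markers was 49880 to 53000 CPM with GFP, 29010 to 32750 with DUX4 and 25610 to 25630 with DUXC. For 7 smooth muscle and pericyte markers it was 2918 to 3108, 1012 to 1106 and 740.3 to 765.9 CPM, and for the 9 myoblast markers 91.5 to 101, 109.6 to 112.5 and 61.9 to 64.4 CPM. The part of immune cells or of these other cell types in the members' levels was not tested.

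For each member the gene outside the lists with the most similar profile was sought by Pearson correlation of log2(CPM + 1) over the 9 libraries, which form 3 groups and so mainly compare group means. NLRC5 was closest to the lipid kinase gene PI4KB (r = 0.996), TAP1 to LRCH3 (r = 0.998), PSMB9 to the exonuclease gene EXO5 (r = 0.995) and B2M to the matrix gene FREM2 (r = 0.999). PSMB8 and ERAP1 shared a nearest gene, IL10RB, a receptor subunit for interleukin 10 (r = 0.979 and 0.963), which stood at 11.5 ± 0.991 CPM in GFP libraries, 7.72 ± 0.293 with DUX4 and 11.4 ± 1.43 with DUXC. Among the members, NLRC5, B2M, PSMB9 and TAP1 had pairwise r of 0.955 to 0.993, and these 4 had r of -0.959 to -0.909 with TAPBP. These 4 are the members that rose with DUXC, where TAPBP fell, so the r values restate the group means.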

How the data were processed

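Messenger RNA of 9 libraries was sequenced after a stranded kit, per the labels. The authors deposited a table of raw counts, made, per the submitters' processing notes, with CASAVA 1.9, Trim Galore, genome build Sscrofa11.1 and featureCounts. The column headers name Subread. The sources used here give neither annotation release nor strand setting.

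Counts were used as deposited. Genes were filtered with filterByExpr by group (15956 kept, 11383 removed), normalised with TMM and fitted with 1 mean per group over all 9 libraries, using robust quasi-likelihood estimation (edgeR 4.0.16, R 4.3.3). P-values of 3 contrasts were adjusted by Benjamini-Hochberg over all tested genes, threshold 0.05. SEs follow from the F statistic. CIITA reached the filter's level of 0.25 CPM in 3 DUXC, 2 GFP and 1 DUX4 libraries, NLRC5 in 8 of 9 and the other members in all. Alternatives used limma 3.58.1 and DESeq2 1.42.0. The common dispersion was 0.00114. All pairs of replicate libraries differed by more than sampling noise (chi-square per degree of freedom 2.62 to 17.9).

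Positions are RefSeq's for the same build. Members and lists were chosen with earlier results of these data known. Named are all members, up to 4 genes of each pathway list by smallest p, and the nearest gene of members. IRF1, IRF8, IFNG, IFNB1, RFXAP, RFXANK, RELA, TPP2, ERAP2, CD74, SLA-1, SLA-2, SLA-DOB, SLA-DRA, SLA-DMA, SLA-DOA, all cell type markers and the genes overlapping or beside members were named after their values were seen. The pipeline was run on simulated counts of 14296 fitted genes for DUX4 against GFP. Of 100 genes changed by 0.5 and 100 changed by 1 on the log2 scale, up and down equally, 97% and 100% were recovered, and 10 unchanged genes were called. Far fewer genes changed there than in the real data, so the simulation does not check the scaling. The changed genes were drawn from those at 1 CPM or more with GFP, and all genes had the same dispersion. The recovery thus does not cover genes as scarce as NLRC5 and CIITA, or differences in spread between genes.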

Additional observations from a re-analysis of the deposited data

How the results depend on the processing

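Of 30 member results (10 genes in 3 contrasts), 20 were called, and 16 of these kept direction and call under all 17 alternatives, among them the rises of NLRC5 (log2 3.16 to 3.69), TAP1 (0.64 to 0.81), PSMB9 (0.59 to 0.77) and B2M (0.44 to 0.60) with DUXC; CIITA had 16, as it was filtered out at a mean of 1 CPM. Scaling by library totals moved the median of all genes by 0.13 with DUXC against GFP and by -0.10 between the transgenes. Called members lower with DUXC went from 2 to 1, TAP2 losing its call, with DESeq2 size factors, library totals, the filter on 1 CPM and DESeq2. Called members higher with DUX4 than with DUXC went from 2 to 1, PSMB10 losing its call, with library totals, the filter on 1 CPM and DESeq2. Leaving out single libraries gave 0 to 1 members higher with DUX4 and 1 to 3 higher with DUX4 than with DUXC. Uncalled log2 differences that turned sign were, with DUXC, PSMB8 at 0.0605 with DESeq2 size factors, 0.108 with library totals, 0.0661 with the filter on 1 CPM, 0.0604 with DESeq2 and 0.03501 with only the 2 groups, ERAP1 at 0.06297, 0.1102 (now called, adjusted p = 0.00590), 0.0685, 0.06296 and 0.0374 in the same order, PSMB10 at -0.0358 without a filter and, between the transgenes, TAP2 at -0.0464 with library totals and -0.0197 with the filter on 1 CPM. Leaving out single libraries, the ranges were -0.0104 to 0.0211 for B2M, -0.006896 to 0.0584 for TAPBP and -0.503 to 0.0337 for NLRC5 with DUX4, and -0.0871 to 0.02715 for PSMB8 and -0.0273 to 0.0434 for PSMB10 with DUXC. Counts of changed genes and of called list genes stayed within 1.5 times, and the subunit ratios kept their direction. Libraries sharing a replicate number did not deviate together (r from -0.0839 to 0.0999), which gives no pairing. With the replicate block 5204 genes were higher and 5068 lower with DUX4, against 5248 and 5093, and 6403 and 6722 with DUXC, against 6422 and 6743, and no member changed its call. For NLRC5 and CIITA, depth limits precision at 10 to 28 and 4 to 15 counts in GFP and DUX4 libraries.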

Other observations

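The costimulatory genes that accompany antigen presentation moved apart. CD86 stood at 168 to 173 CPM in the GFP libraries, 200.2 to 210.2 with DUX4 and 61.3 to 67.3 with DUXC, a fall with DUXC (log2 -1.43) and a rise with DUX4 (log2 0.27), each with an adjusted p of at most 7.76e-10 in edgeR. CD83, a surface protein of mature dendritic cells, had 8.27, 9.12 and 8.802 CPM with GFP, 27.9, 28.1 and 27.6 with DUX4 and 73.7, 78.8 and 76.01 with DUXC, and rose with both (log2 1.67 and 3.13). CD80 had 20, 10 and 53 counts over the GFP, DUX4 and DUXC libraries. These genes were listed as immune cell markers. PTPRC had 0 counts with GFP and DUX4, and which cells the CD86 reads came from was not tested.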
